A study of Mus musculus with 6 samples.

Results

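Of the solute carriers that move sugars and urate across kidney tubule cells, 8 genes were examined in male C57BL/6J mice: the sodium-coupled carriers Slc5a1, Slc5a2 and Slc5a10 and the facilitative carriers Slc2a1, Slc2a2, Slc2a4, Slc2a5 and Slc2a9. Members were the non-control probes whose RefSeq accession belongs to one of these genes, and all 8 genes were found, of 21154 genes with a named probe on the array. Each was represented by 1 probe, and each probe was well above background on all 6 arrays, so that all 8 were among the 15310 genes tested. Whole-kidney total RNA came from 3 animals labelled iNampt-conditional knockout and 3 labelled control, with 1 single-colour Agilent array per animal. Nampt makes the NAD precursor nicotinamide mononucleotide in the salvage pathway, and the series title places the deletion in the renal proximal tubules. The Cre driver, the deleted exons, the alleles that the control mice carry and the ages of the animals are not given in the sources used here. The replicates are numbered as separate mice. The p-values set group differences against the spread between arrays, 1 per animal, in which animal and technical differences are not separated.

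Glucose filtered at the glomerulus is taken back by the proximal tubule in a pair of steps. Sodium-coupled carriers of the Slc5 family (SGLTs) bring it across the brush border against its gradient, and facilitative carriers of the Slc2 family (GLUTs) let it leave through the basolateral membrane. Slc5a2 (SGLT2) is the high-capacity carrier of the early segments and Slc5a1 (SGLT1) the high-affinity carrier of the late segment, with Slc2a2 (GLUT2) and Slc2a1 (GLUT1) as the basolateral exits. Slc2a5 (GLUT5) carries fructose, and Slc2a9 (GLUT9), although related to the glucose carriers, transports urate. The question put to the arrays is whether the kidneys labelled knockout hold more or less of the transcripts of these carriers.

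In the animals labelled knockout, Nampt was at 1.80, 1.502 and 1.53, against 2.78, 2.59 and 2.65 in the controls, as log2 signal minus the array's 75th percentile, the scale of every level given here. All 3 knockouts lay below all 3 controls, with a difference of -1.06 ± 0.10 (log2, SE; limma adjusted p = 0.0432). That adjusted p was 0.0731 without control 1, 0.167 without control 2, 0.179 without control 3, 0.168 without knockout 2 and 0.181 without knockout 3, with differences between -1.10 and -1.003. The Nampt call was also lost with quantile normalisation (-1.04; limma adjusted p = 0.058), a replicate block (-1.06; 0.0894), a slide-row block (-0.87; 0.0734) and scaling on proximal tubule markers (-1.07; 0.0683). Well above background were 58.1% and 57.3% of spots on knockouts 2 and 3 and 61.5% to 63.3% on the other arrays, and 0 spots were saturated. The lowest detected signal (linear) was 28.7 and 32 on knockouts 2 and 3 and 18.5 to 20.9 on the other arrays. The 6 arrays shared 1 slide; its upper row held the 3 controls with knockout 1, and knockouts 2 and 3 lay in the other row. Control 3 gave the highest value of the 6 arrays in 33.2% of all genes and in 5 of the 8 transporters (Slc5a1, Slc5a2, Slc5a10, Slc2a2 and Slc2a4), so differences without control 3 are given where they move. In whole kidney, fewer cells of a type and less RNA per cell cannot be told apart.

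The 250 bases upstream of the gene start of 3 of these genes are printed, 1 for a carrier whose groups separated and 2 for carriers whose groups overlapped. No relation between these sequences and the expression values was tested. They are RefSeq sequences of mouse build GRCm38.p6, written 5′ to 3′ on the plus strand, chr4:150119094-150119343 for Slc2a5, chr3:28697653-28697902 for Slc2a2 and chr5:33103969-33104218 for Slc5a1. Capitals mark matches on either strand to the GC box GGGCGG, the E-box CACGTG or the HNF1 half-site GTTAAT, none of which overlap each other here.
Slc2a5: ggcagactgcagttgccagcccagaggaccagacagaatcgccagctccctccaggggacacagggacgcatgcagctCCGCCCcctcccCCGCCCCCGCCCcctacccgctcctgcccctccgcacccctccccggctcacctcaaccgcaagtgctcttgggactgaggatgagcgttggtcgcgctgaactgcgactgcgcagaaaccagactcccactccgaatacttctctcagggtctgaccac
Slc2a2: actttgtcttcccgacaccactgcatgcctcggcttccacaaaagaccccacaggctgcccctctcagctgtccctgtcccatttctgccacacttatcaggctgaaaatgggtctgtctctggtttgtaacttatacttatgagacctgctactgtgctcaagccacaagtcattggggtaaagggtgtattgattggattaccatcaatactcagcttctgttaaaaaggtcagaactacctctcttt
Slc5a1: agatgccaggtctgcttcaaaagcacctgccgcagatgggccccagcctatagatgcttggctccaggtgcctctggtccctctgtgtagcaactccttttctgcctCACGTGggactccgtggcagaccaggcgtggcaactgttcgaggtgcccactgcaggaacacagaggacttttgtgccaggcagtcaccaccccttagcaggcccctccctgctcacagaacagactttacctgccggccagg
The Slc2a5 window held 3 GC boxes, starting 172, 160 and 154 bases before the gene start, where 32.7% of 32851 promoter windows of the same length held at least 1. The Slc5a1 window held an E-box, found in 6.02% of windows, starting 143 bases before the gene start. The Slc2a2 window held none of the 3 motifs. Promoters were matched for 6 of the 8 genes, and not for Slc5a2 and Slc2a4. Of the matched genes not printed, the Slc2a1 window held 2 GC boxes and the Slc2a9 window none of the 3 motifs. In Slc5a10, 1 of the 2 listed windows held an HNF1 half-site, found in 6.43% of windows, 75 bases before that start. A match describes the letters only.

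By limma with Benjamini-Hochberg adjustment over all genes, at a threshold of 0.05, 0 of the 8 transporters were called, against 0.17% of all genes tested (26 of 15310). By direction, 0 were called higher (0.105% of all genes, 16) and 0 lower (0.0653%, 10); quantile normalisation split the genes called into 5 higher and 6 lower, and normexp into 13 and 14. At an unadjusted p under 0.05 there was 1 transporter of 8, against 12.8% of all genes, made up of 1 higher (6.69%) and 0 lower (6.13%). Knockouts and controls did not overlap in 1 of 8, against 19.5% of all genes, with 1 higher (9.05%) and 0 lower (10.5%). In both directions together, 1 of 8 is near or below the shares of all genes; among higher genes alone it is above them, and it is a single gene. The differences were above 0 for 4 of 8 genes (47.1% of all genes), from -0.12 to 0.32, with a median of -0.02 (all genes tested: -0.0077). The gene with the largest difference was the fructose carrier Slc2a5. For the other 7, the 95% intervals of the difference included 0.

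**Figure D1:**
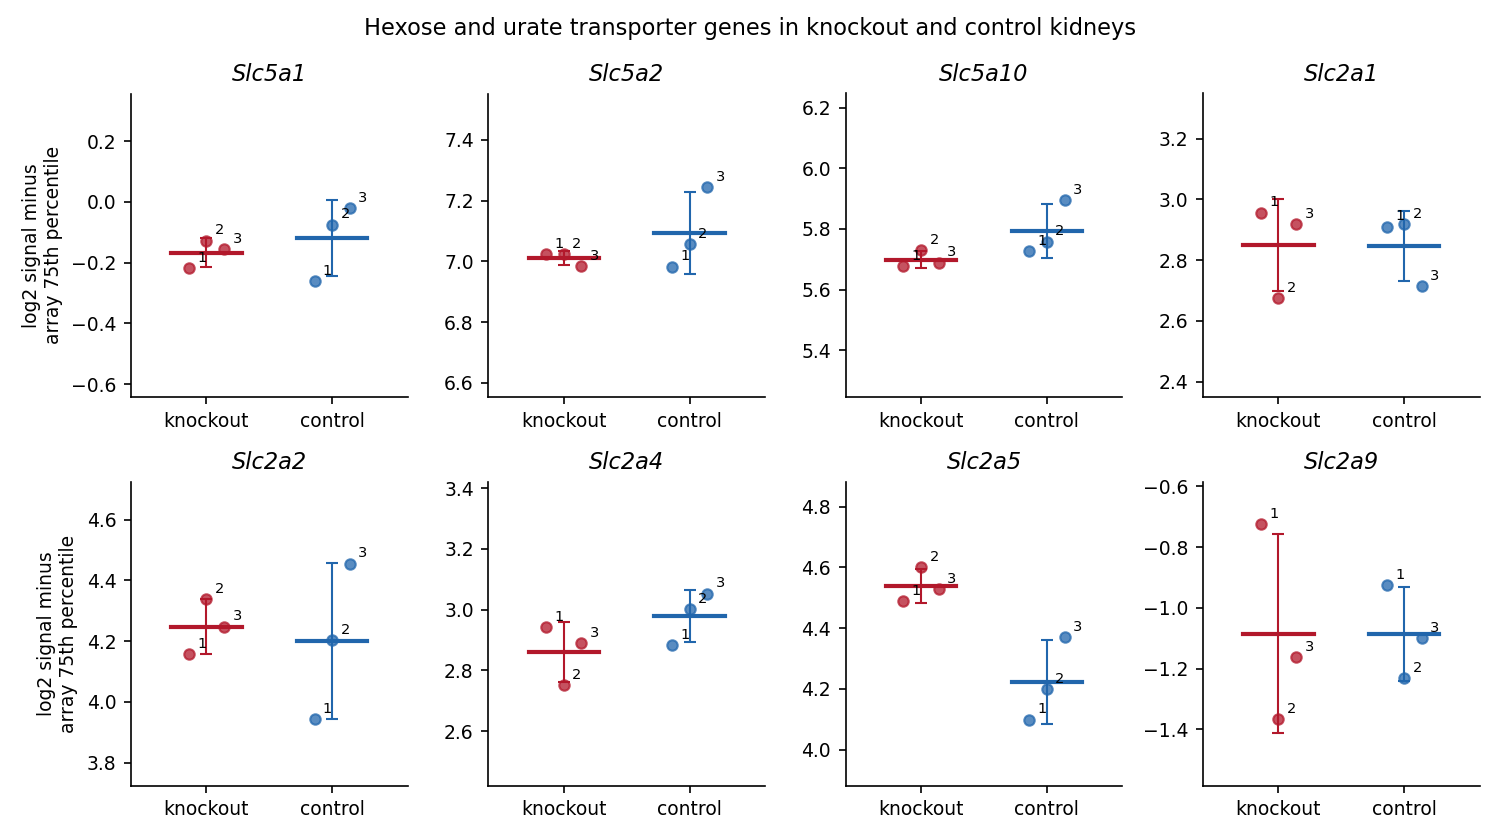
Log2 signal minus the array's 75th percentile of the 8 transporter genes in knockout (left, red) and control (right, blue) kidneys; numbered points are animals, horizontal lines group means, bars SD (n = 3 each), and each panel spans 1 log2 unit. Slc2a5 is the gene in which all 3 knockouts lie above all 3 controls, while in Slc5a2 and Slc5a10 control 3 stands above the other 5 arrays.

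Slc5a2, which encodes SGLT2, lay at 7.023, 7.025 and 6.985 in the knockouts and at 6.983, 7.056 and 7.245 in the controls. The knockouts were close together and lay within the range of the controls, whose highest value was control 3. Its difference was -0.08 ± 0.08 (log2, SE; 95% interval -0.27 to 0.10; limma adjusted p = 0.710), a fold of 0.944. Without control 3 the difference was -0.0086.

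Slc5a1, which encodes SGLT1, lay at -0.218, -0.127 and -0.155 in the knockouts and at -0.261, -0.075 and -0.021 in the controls. The knockouts again fell inside the control range, and the controls were the more scattered group (SD 0.05 in the knockouts and 0.13 in the controls). The difference was -0.05 ± 0.08 (95% interval -0.23 to 0.14; adjusted p = 0.841), and without control 3 it was 0.0013.

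Slc5a10 encodes SGLT5, a sodium-coupled carrier of mannose and fructose in kidney. Its values were 5.68, 5.73 and 5.69 in the knockouts and 5.73, 5.76 and 5.90 in the controls. Knockout 2 lay just above control 1, and the other 2 knockouts lay below all controls. The difference was -0.09 ± 0.06 (95% interval -0.24 to 0.05; adjusted p = 0.588), and -0.04 without control 3.

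**Figure D2:**
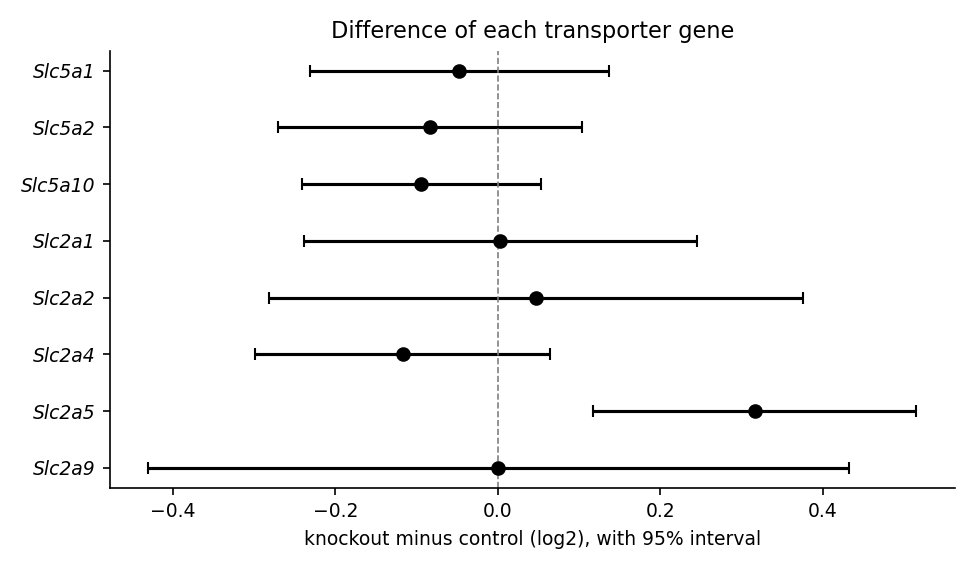
Knockout minus control difference (log2) of each transporter gene from the limma fit, with its 95% interval. The interval of Slc2a5 runs from 0.12 to 0.51 and those of the other 7 genes include 0.

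Among the facilitative carriers, Slc2a5 lay at 4.49, 4.601 and 4.53 in the knockouts and at 4.10, 4.20 and 4.37 in the controls. All 3 knockouts were above all 3 controls, with a gap of 0.12 between knockout 1 and control 3. The difference was 0.32 ± 0.08 (log2, SE; 95% interval 0.12 to 0.51), a fold of 1.245, with a limma unadjusted p = 0.00805 and an adjusted p = 0.236. An exact two-sided permutation test gave p = 0.1, the smallest that 3 animals against 3 allow. Of all genes tested, 3.38% had a smaller p. The difference stayed above 0 in all 18 other settings, from 0.25 to 0.39, and its adjusted p ran from 0.0436 (array weights) to 0.556 (a block for slide row). The slide-row fit, which sets knockout 1 against the controls of its own row, gave 0.27.

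Slc2a2, which encodes GLUT2, lay at 4.16, 4.34 and 4.25 in the knockouts and at 3.94, 4.20 and 4.46 in the controls. The controls spanned a wider range than the knockouts and enclosed all of them. The difference was 0.05 ± 0.13 (95% interval -0.28 to 0.38; adjusted p = 0.915); it was 0.17 without control 3 and -0.08 without control 1.

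Slc2a1, which encodes GLUT1, a carrier that many cell types besides the tubule use, lay at 2.96, 2.68 and 2.92 in the knockouts and at 2.91, 2.92 and 2.71 in the controls. Each group held a pair of arrays near 2.9 and 1 array lower, knockout 2 in the knockouts and control 3 in the controls. The difference was 0.0032 ± 0.10 (95% interval -0.24 to 0.25, limma adjusted p = 0.993), and its sign turned in 6 of the 18 other settings. Without control 3 it was -0.06.

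Slc2a9, the urate carrier, was the most scattered of the 8, at -0.73, -1.37 and -1.16 in the knockouts and at -0.93, -1.23 and -1.10 in the controls. The knockouts spanned a wider range than the controls and enclosed them. The difference was 0.0008 ± 0.18 (95% interval -0.43 to 0.43; adjusted p = 0.999). The fit with a block for slide row gave 0.36, and the fit without knockout 1 gave -0.18. The probe is annotated to 1 of the accessions of this gene, so other transcripts of it may not be read by it.

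Slc2a4 encodes GLUT4, the insulin-responsive carrier of fat and muscle. It lay at 2.94, 2.75 and 2.89 in the knockouts and at 2.88, 3.001 and 3.05 in the controls. Knockouts 1 and 3 were above control 1, so the groups overlapped, and the difference was -0.12 ± 0.07 (95% interval -0.30 to 0.06; adjusted p = 0.584). Its probe was spotted 10 times on each array, which measures the noise between spots of 1 hybridisation and not that of labelling or hybridisation. The SD between spots of 1 array was 0.05 to 0.08, so that the mean of an array had an SE of 0.02, against an SD between animals of 0.10 in the knockouts and 0.09 in the controls. The slide-row fit gave -0.04, and without control 3 the difference was -0.08.

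Markers of fat, whose cells carry GLUT4, varied widely between arrays. Of 10 adipocyte markers 9 were tested and 0 passed, and Lep was not well above background on any array. At an unadjusted p under 0.05, 1 was lower (6.13% of all genes). Differences were below 0 in 8 of 9, with a median of -0.88, where 47.1% of all genes were above 0. Their summed level (75th percentile of the array = 1) was 31.2, 22.3 and 65.5 in the knockouts and 69.1, 40.6 and 54.5 in the controls. The lowest array was knockout 2 both in that sum and in Slc2a4. The highest was control 1 in the sum and control 3 in Slc2a4. Retn, which encodes the fat hormone resistin, was at -1.64 ± 0.47, Car3 at -0.99 ± 0.41 and Lipe, the hormone-sensitive lipase gene, at 0.58 ± 0.32 (log2 differences, SE), none passing the test. Of 6 skeletal muscle markers, Ckm, Myh4 and Tnnt3 were not well above background on any array, and the summed level of the other 3 was 0.267 to 0.555 in the knockouts and 0.315 to 0.355 in the controls. The part of fat in the Slc2a4 values was not tested.

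**Figure D3:**
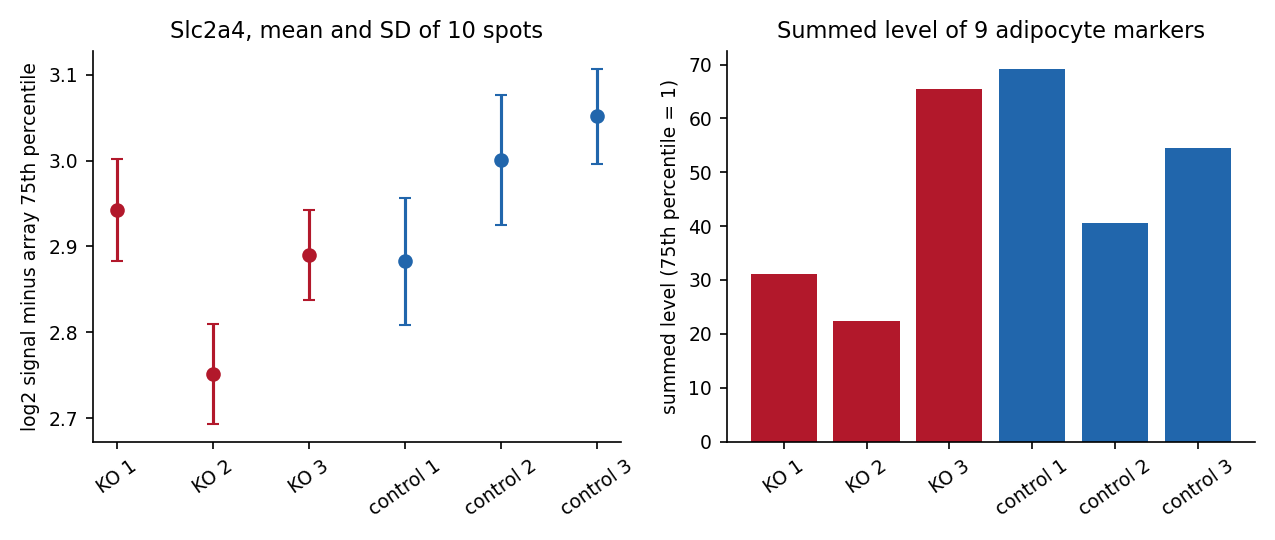
Left, Slc2a4 on each array as the mean and SD of its 10 spots, with knockouts (red) before controls (blue). Right, the summed level of 9 adipocyte markers on the same arrays (75th percentile of the array = 1). The lowest array is knockout 2 in each panel, and the highest is control 3 on the left and control 1 on the right.

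The proximal tubule markers stand for the cells that carry most of these transporters, and single markers lay on both sides of 0. Of 8 markers of the early segments 0 passed, 0 had an unadjusted p under 0.05 and the median difference was -0.0029. Slc34a1, the phosphate carrier, was at -0.02 ± 0.05, the endocytic receptor genes Lrp2 and Cubn at 0.02 ± 0.07 and 0.03 ± 0.09, Gatm at -0.19 ± 0.15, Alpl at -0.09 ± 0.11, and the carriers Slc4a4, Slc6a19 and Slc5a12 at -0.09 ± 0.08, 0.14 ± 0.13 and 0.14 ± 0.10. Their summed level was 678 to 715 in the knockouts and 664 to 757 in the controls. Control 3 was the highest array in 6 of the 8.

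Of 7 tested markers of the straight segment, where Slc5a1 and Slc2a5 are known to lie, 1 fell and 0 rose, with a median of 0.03. The one that fell was Rnf24, at -1.04 ± 0.10 (limma adjusted p = 0.0432), and its adjusted p was 0.0794, 0.190, 0.179, 0.168 and 0.196 without control 1, control 2, control 3, knockout 2 and knockout 3, with differences between -1.07 and -0.98. Cyp7b1 was at 0.17 ± 0.05 (adjusted p = 0.251), Napsa at -0.09 ± 0.05, Atp11a at 0.15 ± 0.09, Slc27a2 at 0.04 ± 0.05, Slc3a1 at -0.02 ± 0.05 and the male-enriched Slc7a13 at 0.03 ± 0.13. When each array was shifted by the median deviation of these 15 markers, a setting chosen after the data were seen, Slc2a5 was at 0.30 (adjusted p = 0.162), Slc5a10 at -0.11 (0.385) and Slc5a2 at -0.10 (0.5). Over the other settings the adjusted p of Slc5a10 ran up to 0.810 and that of Slc5a2 from 0.473 to 0.963.

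Markers of tubule injury differed most between the groups of all lists examined, by their median (1.30). All 6 had an unadjusted p under 0.05 and were higher, against 6.69% of all genes, and 0 passed the adjusted test. Their summed level was 4.68, 8.59 and 7.58 in the knockouts and 3.64, 3.23 and 2.42 in the controls, with knockout 1 nearest the controls. Timp1 was at 1.91 ± 0.33, Havcr1, which encodes KIM-1, at 3.71 ± 0.65 and Lcn2 at 1.12 ± 0.21 (adjusted p = 0.138, 0.138 and 0.157). Timp1 and Havcr1 passed without knockout 1 (2.26 and 4.49, limma adjusted p = 0.0436 and 0.0135). In any fit without knockout 1, the remaining knockouts all lie in the other slide row, so group and row cannot be told apart. Erythroid markers were below 0 in 6 of 6 tested (median -0.71), with 0 passed and 2 lower at an unadjusted p under 0.05. Over all genes, 6.13% were lower at that unadjusted p, and 47.1% of differences were above 0. The list was led by Hbb-b2 at -0.68 ± 0.17, Hbb-b1 at -0.76 ± 0.22 and Hbb-bt at -0.77 ± 0.32. Hbb-b1 passed without knockout 1 (-1.01, limma adjusted p = 0.0476). The summed level of the erythroid markers was 609.9, 344 and 310.5 in the knockouts and 695, 611 and 552 in the controls. Knockout 1 lay within the control range, and the low sums are those of knockouts 2 and 3, the 2 arrays of the other slide row. The part of injured tubules or of blood in the transporter values was not tested. In the lists of the loop and distal tubule, podocytes and endothelium 0 of 5 genes each passed or had an unadjusted p under 0.05, with medians of -0.12, 0.02 and -0.0071.

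Of the other members of the Slc5 family, 7 of 10 were tested and 0 passed (1 higher at an unadjusted p under 0.05, median 0.0022). Slc5a6, the biotin and pantothenate carrier, was at 2.59, 2.63 and 2.57 in the knockouts and at 2.46, 2.42 and 2.52 in the controls, a difference of 0.13 ± 0.05 (limma adjusted p = 0.357), and its groups did not overlap. It was the 1 gene of these 7 with groups apart, against 9.05% of all genes with the knockouts higher. The myo-inositol carrier gene Slc5a3 was at -0.31 ± 0.16, Slc5a12, a lactate carrier, at 0.14 ± 0.10 and Slc5a4a at 0.28 ± 0.25, well above background on 2 of the 3 knockout arrays. Slc5a5, Slc5a7 and Slc5a4b were not tested because they were not well above background on all arrays of a group. Of the other Slc2 genes 5 of 7 were tested and 0 passed (0 unadjusted, median -0.06), with Slc2a6 at 0.37 ± 0.20, Slc2a10 (well above background on 2 of the 3 knockout arrays) at -0.39 ± 0.34, the proton-coupled myo-inositol carrier gene Slc2a13 at -0.06 ± 0.07 and Slc2a8 at 0.05 ± 0.07.

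The other urate transporters and the scaffold gene Pdzk1 gave 0 of 13 genes past the test, with 1 lower at an unadjusted p under 0.05 and a median of 0.0009. That gene was Slc17a2, at -5.50 in the knockouts and -4.79 in the controls on average, not well above background on any knockout array and at least 1.09-fold lower there. It entered the test through the controls alone, so its p is not read and only the bound stands. Slc17a4, an organic anion and urate carrier in human, was at 0.29 ± 0.14, Slc16a9 at 0.10 ± 0.05 and the efflux pump gene Abcc4 at 0.22 ± 0.13. All knockouts lay above all controls in 2 of the 13, Slc17a4 and Slc16a9, against 9.05% of all genes. The order of the arrays in the dim Slc17a2 is not read either. Among enzymes of purine breakdown and salvage 0 of 7 passed (1 higher unadjusted, median 0.03). Ada, adenosine deaminase, was at 0.27, 0.17 and 0.01 in the knockouts and at -0.04, -0.55 and -0.41 in the controls, 0.48 ± 0.14 higher with adjusted p = 0.280. Gda, guanine deaminase, was at -0.19 ± 0.12, Pnp at 0.07 ± 0.07 and Urah at 0.18 ± 0.18. Uox, which encodes urate oxidase, was not well above background on any array.

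The hexose enzymes that act on the sugars once inside the cell gave 0 of 15 past the test and 0 at an unadjusted p under 0.05 (median 0.01). Knockouts and controls did not overlap in 2 of the 15, with the knockouts lower (10.5% of all genes). Hexokinase genes Hk1, Hk2 and Hk3 were at -0.16 ± 0.09, 0.74 ± 0.47 and 0.48 ± 0.38, and Pck1, which encodes the gluconeogenic enzyme PEPCK, at -0.11 ± 0.06. Hk2 ranged from -4.50 to -2.66 in the knockouts and from -4.77 to -4.11 in the controls, and with slide row as a block Hk2 and Hk3 were below 0 (-0.07 and -0.03).

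Of 15 tested regulators of these transporters, 1 rose and 0 fell (2 higher and 1 lower at an unadjusted p under 0.05, median -0.02). The knockouts lay wholly above the controls in 1 of the 15 and wholly below in 3, against 9.05% and 10.5% of all genes. The gene that rose was Txnip, an arrestin-family protein known to promote the internalisation of GLUT1 and GLUT4. Txnip was at 4.41, 4.48 and 4.51 in the knockouts and at 3.86, 3.76 and 3.65 in the controls, so that all 3 knockouts lay above all 3 controls. Its difference was 0.71 ± 0.07 (limma adjusted p = 0.0432). The adjusted p was 0.193 without control 2, 0.122 without control 3, 0.0512 without knockout 1, 0.188 without knockout 2 and 0.198 without knockout 3, with differences between 0.66 and 0.74. Its relative Arrdc4 was at 0.20 ± 0.08 (adjusted p = 0.376). Hnf4g, a nuclear receptor gene, was at -2.24, -2.08 and -1.999 in the knockouts and at -1.73, -1.82 and -1.73 in the controls, a difference of -0.35 ± 0.08 with adjusted p = 0.196, and Irs1, the insulin receptor substrate gene, was at -0.18 ± 0.08 (adjusted p = 0.404).

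**Figure D4:**
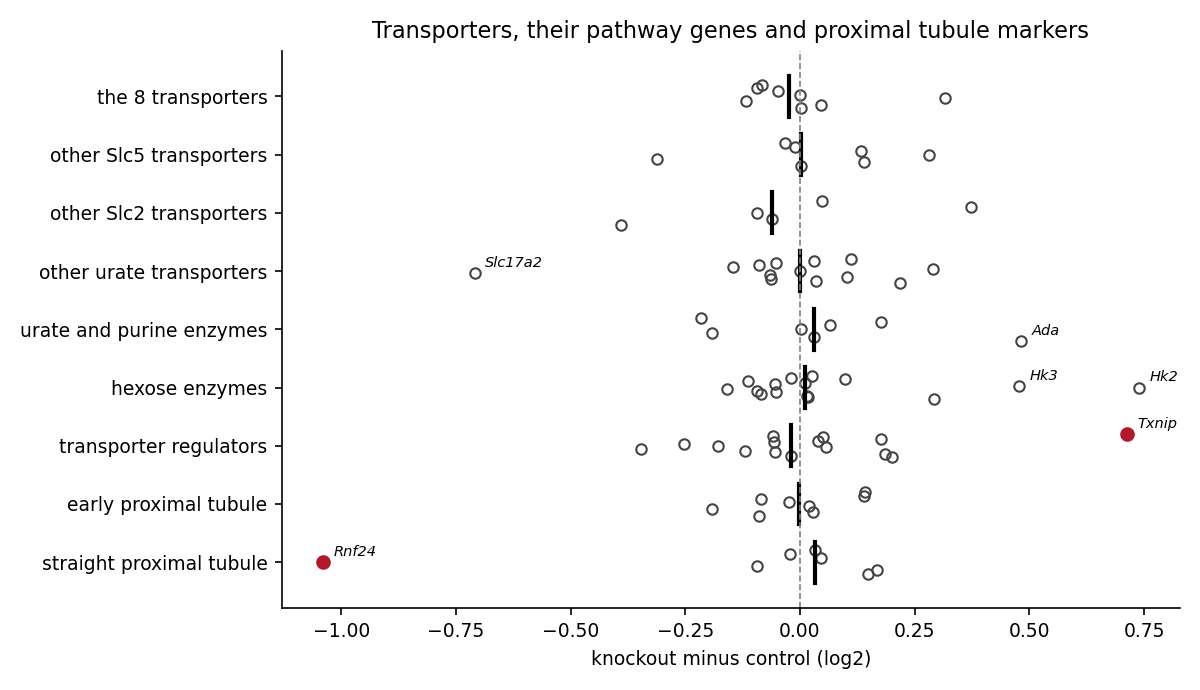
Knockout minus control difference (log2) of each tested gene (circles) in the 8 transporters, their pathway lists and the proximal tubule marker lists, with list medians (black bars) and genes of adjusted p under 0.05 filled. Medians lie between -0.06 and 0.03, and the filled genes are Txnip and Rnf24.

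Genes whose values over the 6 arrays ran most like those of the 3 transporters of smallest p are given as a description, since the best match is drawn from all genes tested and control 3 is shared by every pair. The closest to Slc2a5 were Ttf2 (Pearson r = 0.998 over 6 arrays) and Foxi1, the forkhead factor of intercalated cells (r = 0.996). Foxi1 was at 3.24, 3.31 and 3.24 in the knockouts and at 2.86, 2.93 and 3.08 in the controls. It was 0.31 ± 0.07 higher in the knockouts (limma adjusted p = 0.205). Its knockouts also lay above all controls, which its choice for likeness to Slc2a5 made likely. In the collecting duct list that holds Foxi1, 0 of 5 passed (1 higher and 1 lower unadjusted, median 0.15), with Atp6v1g3 at -0.28 ± 0.06 and Aqp3 at 0.15 ± 0.10. The groups of Atp6v1g3 did not overlap either, with the knockouts lower. Over all genes, 9.05% were apart like Foxi1 and 10.5% like Atp6v1g3. Kif16b (r = 0.995) and Heatr6 (r = 0.991) were closest to Slc2a4, and Acot8 (r = 0.997) and Pef1 (r = 0.996) to Slc5a10.

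**Figure D5:**
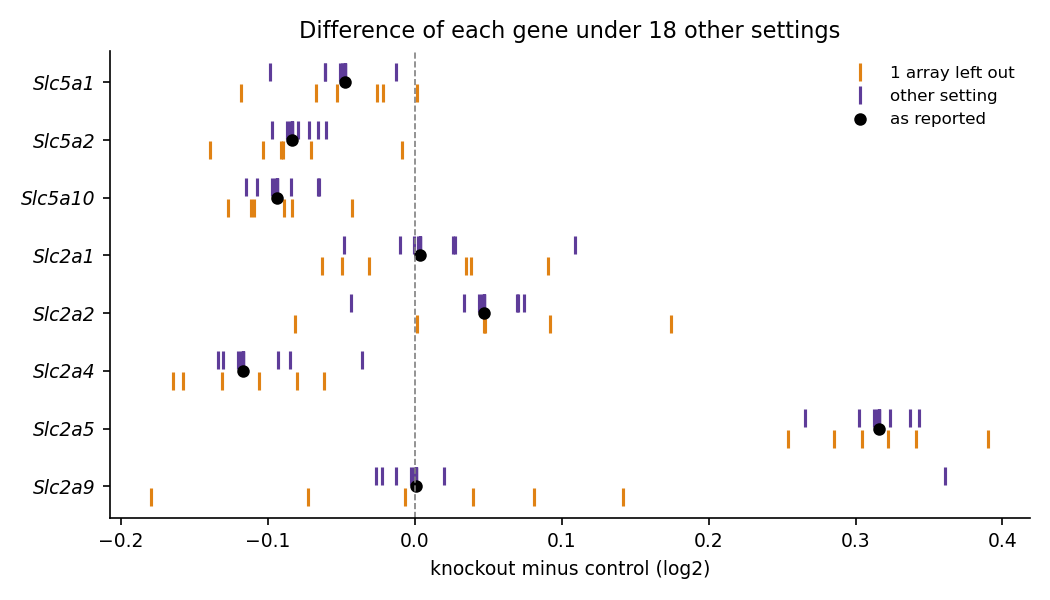
Knockout minus control difference (log2) of each transporter gene as reported (black) and under 18 other settings, 6 that leave out 1 array (orange) and 12 others (purple). Slc2a5 stays between 0.25 and 0.39, Slc5a2, Slc5a10 and Slc2a4 stay below 0, and Slc2a1, Slc2a2, Slc2a9 and Slc5a1 lie on both sides of 0.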

How the data were processed

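Kidney RNA was labelled with Cy3, 1 Agilent 8x60K mouse array per animal, per the labels. Deposited scanner files give spot intensity (linear), produced, per the file headers, by version 10.7.1.1 of Feature Extraction; the headers also hold statistics of background subtraction and of a spatial trend. Nothing was scaled between arrays. Flags of 0 or 1 per spot were used as deposited. The value table that the authors deposited is a linear ratio: among probes over 1 (13933 to 13936 per array) it matched signal over a constant of the array to within 1%, and column medians were 0.075 to 0.084. Genes are therefore not centred in it; for its software, the sources used here give no name.

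After removal of outlier spots (92 to 151 per array), log2 spot values were averaged by probe, and the 75th percentile of an array's 55681 probes was taken off. RefSeq's GRCm38.p6 table named 28026 probes (21154 genes) through unversioned accessions and left 27655 unnamed. Positions on the array are mm9, so genes get no coordinates here. Probes had to be well above background throughout 1 group or both, and each gene took its brightest such probe. The test was limma 3.58.1 (lmFit, eBayes; R 4.3.3), with group as its single term and Benjamini-Hochberg adjustment at 0.05 over all genes; it was tested on simulated data. Where a whole group was below background, the fold is a bound against the higher of the probe's own signal and the lowest detected signal of each array. Python 3.11.15, pandas 2.3.3 and matplotlib 3.10.9 served for promoters and plots. Precision is limited by the number of arrays.

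Members, lists and the rule for named genes were chosen with earlier results of these data known. That rule names every member, Nampt, up to 4 genes of smallest p per pathway list, up to 3 per marker list (lists that showed nothing at an unadjusted p under 0.05 are given as counts, fat aside), every proximal tubule marker, and the 2 closest correlates of each of the 3 members of smallest p. Other settings were quantile or median scaling, normexp (offset 50, on median spot signals), the authors' ratios, looser and stricter filters, averaging probes, trended and robust variance, array weights, blocks for replicate number or slide row, omission of single arrays and, chosen after seeing the data, scaling on proximal tubule markers. Trying a member's other probes was not possible, since each has 1.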

Additional observations from a re-analysis of the deposited data

How the results depend on the processing

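Over the 18 other settings, Slc2a5 stayed above 0 and Slc5a2, Slc5a10 and Slc2a4 below 0. With array weights 1 of the 8 transporters passed, Slc2a5 at 0.3429 (limma adjusted p = 0.0436), and 0 passed in each of the other settings. The weights were 0.596, 3.48 and 0.412 for controls 1 to 3 and 0.541, 1.1 and 1.95 for knockouts 1 to 3. The control mean thus rested mostly on control 2. Without 1 array, Slc5a1 ran from -0.1184 to 0.0013, Slc2a1 from -0.0634 to 0.0903, Slc2a2 from -0.0813 to 0.1742 and Slc2a9 from -0.1793 to 0.142. Slc2a1 was at -0.0003 with median scaling, -0.0482 with array weights and -0.0104 with scaling on proximal tubule markers, and Slc2a2 at -0.0438 with slide row as a block. Slc2a9 was at -0.0224 with quantile normalisation, -0.0027 with median scaling, -0.0264 with normexp, -0.0007 with the authors' ratios and -0.0127 with scaling on proximal tubule markers. Over all genes, 26 were called, against 11 with quantile normalisation, 11 with scaling on proximal tubule markers (5 higher and 6 lower each), 77 unfiltered for dim probes (64 and 13), 57 with trended and robust variance, 338 with array weights, 16 with slide row as a block (5 and 11) and, by limma, 0 with the replicate block (1635 at an unadjusted p under 0.05). Leaving out 1 array gave 0 to 57: 0 by limma without control 2 or control 3 (where 1435 and 1550 had an unadjusted p under 0.05), 57 without knockout 1, and 1 when knockout 2 or knockout 3 was left out. Without knockout 1, group and slide row cannot be told apart. Same-numbered animals deviated from their group means with correlations of 0.104, -0.097 and -0.026 across genes, and differently numbered pairs with -0.091 to 0.123. With 3 arrays per group, these values cannot decide whether same-numbered animals share more than a number. With the replicate block Slc2a5 had a limma adjusted p = 0.375. The call of Nampt was lost, and those of Txnip among regulators and of Rnf24 among straight tubule markers both became 0, with quantile normalisation, either block or scaling on proximal tubule markers, and counts were 0 to 1 without 1 array. Injured tubule calls were 3 with array weights and 0 to 3 without 1 array, erythroid calls 2 and 0 to 1, and collecting duct calls 1 with array weights. With slide row as a block, signs turned for Slc2a10 (0.1464), Slc2a13 (0.0306, and 0.0027 with normexp), Hk2 (-0.0698), Hk3 (-0.0278), Aqp3 (-0.0113), Lipe (-0.1287), Lrp2 (-0.083), Cubn (-0.1089), Alpl (0.096) and Slc7a13 (-0.1867). Slc3a1 was at 0.0039 with quantile normalisation and Gda at 0.0015 with the mean of its probes. Without 1 array, ranges crossed 0 for Slc2a8 (-0.0203 to 0.1022), Slc34a1 (-0.051 to 0.0171), Lrp2 (-0.0241 to 0.0701), Cubn (-0.0344 to 0.0967), Slc7a13 (-0.0422 to 0.1431) and Slc3a1 (-0.0401 to 0.0057). The cause was not tested. Low signal limits genes such as Slc17a2, for which only a bound is given in the knockouts.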
